A study of Oryctolagus cuniculus with 27 samples.

Results

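Cathepsins are proteases of the lysosome and cystatins are the proteins that inhibit many of them. The set described here was named by 10 gene symbols, and 8 of the 10 were listed in the full count tables among 31346 genes: the cysteine cathepsins CTSB, CTSC, CTSH, CTSK, CTSS and CTSZ and the inhibitors CST3 and CSTB. CTSD and CTSL were not listed under those symbols and were not analysed here. All 8 listed genes passed the filter on low counts in each of the 3 tissues.

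The study sequenced bulk RNA of wild-type male New Zealand rabbits, whose ages were not given. Valve cusps came from animals on a diet with 1% cholesterol plus 3500 IU of ergocalciferol (vitamin D2) per kg per day for 2 weeks (n = 4), 4 weeks (n = 4) or 7 weeks (n = 4), and from control animals on normal chow (n = 4), a single cusp per animal. Ascending aorta came from 2 diet and 3 control animals, and left ventricular myocardium from 3 diet and 3 control animals, with no duration in their labels. The sample names placed the 3 diet myocardium libraries with animals whose valves were taken at 7 weeks and 1 of the 2 diet aortas with an animal whose valve was taken at 2 weeks, and 6 of the 21 animals gave 2 libraries each. The control valves were titled 7 weeks in 3 cases and 2 weeks in 1 case, whereas the study's design text pools controls of 2 and 4 weeks, so the time on chow is uncertain.

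As background from human and mouse work, cysteine cathepsins are made as inactive precursors, are activated in acidic lysosomes and degrade proteins taken up by the cell. Macrophages and osteoclasts carry large amounts of them and can release them, where they act on collagen and elastin of the vessel wall and valve. Cystatins bind the active site of these enzymes: CST3 encodes cystatin C, which is secreted, and CSTB encodes cystatin B, which stays inside the cell.

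The 27 libraries held 8.458 to 19.999 M counts in valve, 11.510 to 16.107 M in aorta and 13.954 to 17.322 M in myocardium. Levels below are counts scaled to the library total (CPM), and they are compared between libraries of 1 gene, never between genes, because transcript lengths were not used. Differences are log2 fold changes of edgeR's quasi-likelihood test with their standard error, tested over control, and adjusted p-values are Benjamini-Hochberg values over all genes of that comparison with a threshold of 0.05. The 3 diet durations were set against the same 4 control libraries. Replicates were separate animals. Within the valve the numbers that end the sample names ran in blocks by group, apart from a single 4-week library. What these numbers stand for is not given, so whether the valve groups were prepared together is not known. In bulk tissue, a change in the number of cells of a type and a change in RNA per cell cannot be told apart.

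In the valve, CTSS was the gene of the group that differed most between diet and control, at about 4 times the control level after 4 and 7 weeks of diet, while 2-week and control valves overlapped. After 7 weeks 6 of the 8 genes were higher than in control valves: CTSB, CTSH, CTSS, CTSZ, CST3 and CSTB, with fold changes of 1.69 to 3.90. After 4 weeks 1 of 8 was higher, CTSS, and after 2 weeks 0 of 8 differed by edgeR. At an unadjusted p under 0.05 the numbers were 8 of 8 at 7 weeks, 7 of 8 at 4 weeks (all but CSTB) and 0 of 8 at 2 weeks, and DESeq2 with adjustment called 7, 4 and 0. Over all genes, at 7 weeks 5.2% of the 15973 genes tested were called higher, at 4 weeks 1.94%, and at 2 weeks 0.025% were called in either direction, which was 4 genes, with 2622 genes at an unadjusted p under 0.05. The median log2 difference of the 8 genes was 0.18 after 2 weeks, beside 0.02 over all genes tested. It was 0.79 after 4 weeks, beside -0.03, and 0.84 after 7 weeks, beside -0.01.

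CTSS encodes cathepsin S, an elastin-degrading enzyme that stays active at neutral pH and that cuts the invariant chain in antigen-presenting cells. Its level was 35.8, 17.4, 14.3 and 19.5 CPM in the control valves. After 2 weeks of diet it was 15.6, 25.4, 15.6 and 21.8 CPM, after 4 weeks 64.4, 133, 171 and 36.1 CPM, and after 7 weeks 104, 49.9, 85.0 and 109 CPM. All 4-week and 7-week libraries lay above all control libraries, although the lowest 4-week library (36.1 CPM) and the highest control library (35.8 CPM) nearly met, and the 2-week libraries lay among the controls. With library totals scaled by the TMM factors of the fit, these 2 libraries changed order, to 31.3 against 32.3, so that the 4-week and control valves overlapped, while the 7-week valves stayed above the controls. The log2 difference was -0.18 ± 0.37 at 2 weeks (SE, adjusted p = 0.87, 95% interval -0.96 to 0.60). CTSS rose at 4 weeks, by 2.03 ± 0.38 (SE, adjusted p = 0.0192), and at 7 weeks, by 1.96 ± 0.38 (SE, adjusted p = 0.00861), both on the log2 scale. The 7-week call held in all 15 alternative settings, and the 4-week call in 8 of 15. The 4-week call was lost without 4-week library 2 (adjusted p = 0.0520) or 3 (0.0649) and without control library 2 (0.0818), 3 (0.0945) or 4 (0.0817), while its log2 difference stayed between 1.68 and 2.01 in those 5 fits.

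**Figure D1:**
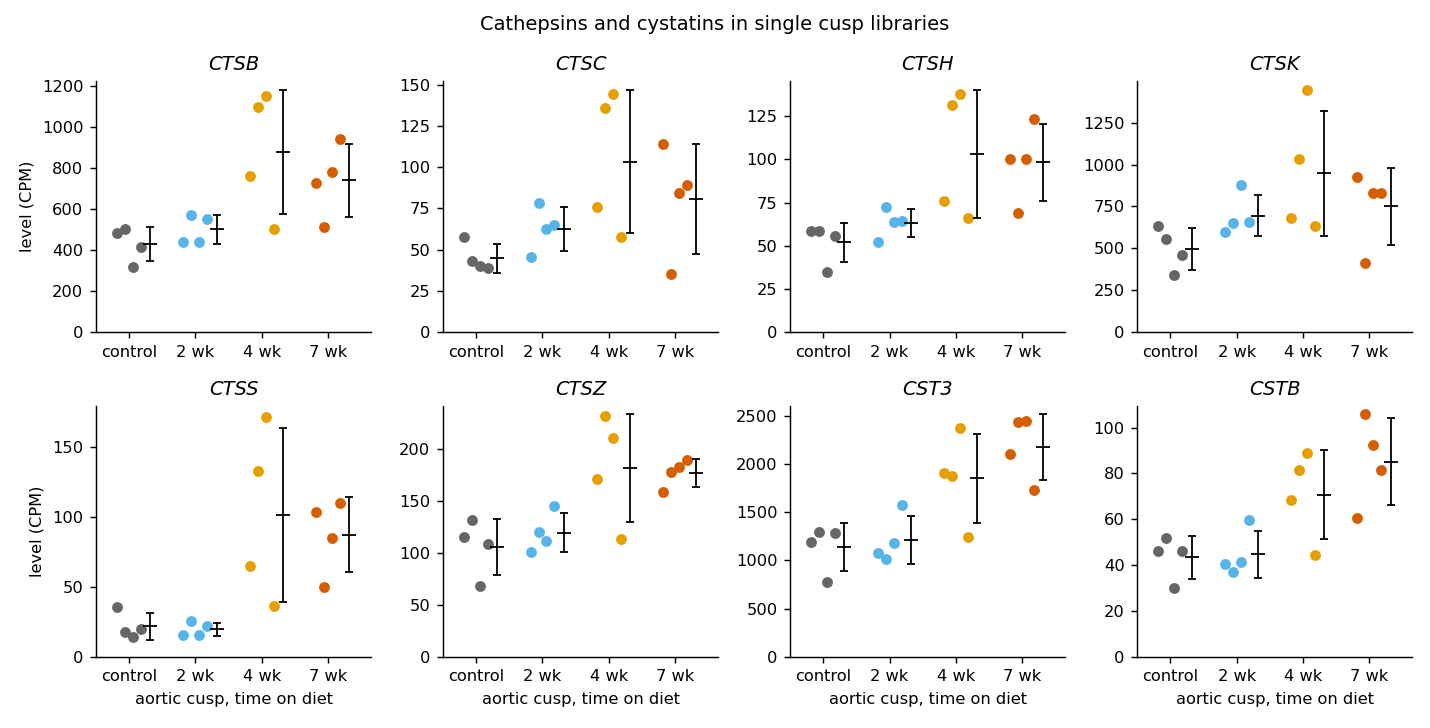
Level of each of the 8 genes in CPM (vertical axis, from 0, 1 panel per gene) in the 16 valve libraries, by group from control to 7 weeks of diet, with 1 point per library and the group mean with a bar of ± 1 SD beside it. CTSS shows the widest gap, with control libraries at 14.3 to 35.8 CPM and 7-week libraries at 49.9 to 109 CPM.

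CTSB encodes cathepsin B, a broad endopeptidase and carboxypeptidase. Control valves had 481, 504, 318 and 416 CPM, 2-week valves 439.7, 571, 439.7 and 553 CPM, 4-week valves 759, 1095, 1148 and 503 CPM, and 7-week valves 724, 512, 778 and 942 CPM. Every 7-week library exceeded every control library, by a small margin for the lowest, whereas the lowest 4-week library (503 CPM) lay just below the highest control (504 CPM), an order that TMM scaling turned round. CTSB rose at 7 weeks by 0.77 ± 0.21 on the log2 scale (SE, 1.70-fold, adjusted p = 0.0406). At 4 weeks the log2 difference was 0.86 ± 0.21 (adjusted p = 0.0529), and without 4-week library 4 it passed the threshold at 1.04 (adjusted p = 0.00501).

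CTSH encodes cathepsin H, an aminopeptidase. It stood at 58.6, 58.7, 34.8 and 55.6 CPM in control valves and at 52.5, 72.5, 63.7 and 64.3 CPM after 2 weeks. After 4 weeks it stood at 75.8, 132, 138 and 66.4 CPM, and after 7 weeks at 100.5, 68.9, 100.3 and 124 CPM. The 4-week and 7-week libraries all lay above the highest control, under TMM scaling too. CTSH rose at 7 weeks by 0.90 ± 0.21 on the log2 scale (SE, 1.87-fold, adjusted p = 0.0197), a call lost without 7-week library 4 (adjusted p = 0.0652) or control library 2 (0.0515) or 3 (0.0649). Its 4-week difference was 0.81 ± 0.21 (adjusted p = 0.0590).

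CTSZ encodes cathepsin Z, also called cathepsin X, a carboxypeptidase. Levels were 115, 132, 67.8 and 108 CPM in control valves, 101, 120.0, 112 and 145 CPM after 2 weeks, 171, 232, 210.3 and 114 CPM after 4 weeks, and 159, 177, 183 and 189 CPM after 7 weeks. In CPM the 7-week libraries were tightly grouped (177 ± 13.1 CPM, SD, n = 4) and all lay above the control libraries. Under TMM scaling they spread more widely, at 126, 195, 155 and 174, and still lay above the highest control (112). CTSZ rose at 7 weeks by 0.76 ± 0.21 on the log2 scale (SE, 1.69-fold, adjusted p = 0.0396). The 4-week difference was 0.62 ± 0.21 (adjusted p = 0.168), and 4-week library 4 lay within the control range.

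CTSC and CTSK did not pass the test at any duration. CTSC encodes dipeptidyl peptidase I, which activates the granule proteases of immune cells. It had 57.8, 43.3, 39.98 and 38.7 CPM in control valves, 45.6, 78.1, 62.6 and 64.8 CPM after 2 weeks, 75.8, 136, 144 and 57.5 CPM after 4 weeks, and 114, 35.1, 84.4 and 89.4 CPM after 7 weeks. A single 7-week library, number 2, lay below all controls while the other 3 lay above them. The log2 difference was 0.46 ± 0.27 at 2 weeks (adjusted p = 0.435), 1.02 ± 0.27 at 4 weeks (adjusted p = 0.0652) and 0.78 ± 0.27 at 7 weeks (adjusted p = 0.0836). Without 7-week library 2 the 7-week value was 0.99 (adjusted p = 0.0309), and without 4-week library 4 the 4-week value was 1.21 (adjusted p = 0.0126).

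CTSK encodes cathepsin K, the collagen-degrading protease of osteoclasts. Control valves had 634, 555, 339.9 and 462 CPM, 2-week valves 599, 651, 875 and 656 CPM, 4-week valves 679, 1031, 1443 and 633 CPM, and 7-week valves 925, 415, 832 and 831 CPM. Diet and control libraries overlapped at every duration. The log2 difference of CTSK was 0.49 ± 0.25 at 2 weeks (adjusted p = 0.361), 0.76 ± 0.25 at 4 weeks (adjusted p = 0.156) and 0.55 ± 0.25 at 7 weeks (adjusted p = 0.179, 95% interval 0.02 to 1.09). CTSK is the direct neighbour of CTSS in the RefSeq annotation of the mOryCun1.1 assembly. The pair had the largest profile distance of the 28 pairs of members, as given below. However, every pair with CTSS, the member with the widest spread, was farther apart than every pair without it.

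Both inhibitors had their highest group mean at 7 weeks, but the 7-week and 4-week libraries overlapped. By edgeR neither was called different between these durations (adjusted p = 0.472 for CST3 and 0.451 for CSTB). CST3 had 1194, 1297, 776 and 1283 CPM in control valves, 1081, 1011, 1180.0 and 1571 CPM after 2 weeks, 1908, 1873, 2372 and 1246 CPM after 4 weeks, and 2099.9, 2433, 2449 and 1727 CPM after 7 weeks. All 7-week libraries exceeded all 2-week and control libraries. CST3 rose at 7 weeks by 0.95 ± 0.24 on the log2 scale (SE, 1.94-fold, adjusted p = 0.0282), and its 4-week difference was 0.54 ± 0.24 (adjusted p = 0.353).

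CSTB had 46.0, 51.7, 29.99 and 46.2 CPM in control valves, 40.5, 36.8, 41.5 and 59.7 CPM after 2 weeks, 68.5, 81.6, 88.8 and 44.3 CPM after 4 weeks, and 60.7, 106, 92.6 and 81.7 CPM after 7 weeks. Here too every 7-week library lay above every control library, while 4-week library 4 lay among the controls. CSTB rose at 7 weeks by 1.01 ± 0.26 on the log2 scale (SE, 2.01-fold, adjusted p = 0.0293), and its 4-week difference was 0.54 ± 0.26 (adjusted p = 0.404). At 2 weeks the differences of the inhibitors were 0.08 ± 0.24 for CST3 and 0.03 ± 0.26 for CSTB.

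The number of members whose 4 diet libraries all lay above the 4 control libraries was 0 of 8 at 2 weeks, 2 of 8 at 4 weeks (CTSH and CTSS) and 6 of 8 at 7 weeks (all except CTSC and CTSK). Over all genes tested the same was seen for 4.43% after 2 weeks, 6.29% after 4 weeks and 8.48% after 7 weeks. With library totals scaled by TMM, a check chosen after seeing the data, the counts were again 0, 2 and 6 of 8, with the same 6 genes at 7 weeks but CTSB and CTSH at 4 weeks, beside 4.75%, 3.93% and 8.4% of all genes. The adjusted p of the 7-week calls other than CTSS lay close to the threshold. Leaving out a single library left 1 to 6 members called at 7 weeks, with CTSS among them every time, and CTSS alone without control library 2 or 3. The calls of CTSB, CTSZ, CST3 and CSTB were each lost in 5 to 7 of the 8 such fits, while their log2 differences in all 8 ranged from 0.61 for CTSZ to 1.19 for CSTB.

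**Figure D2:**
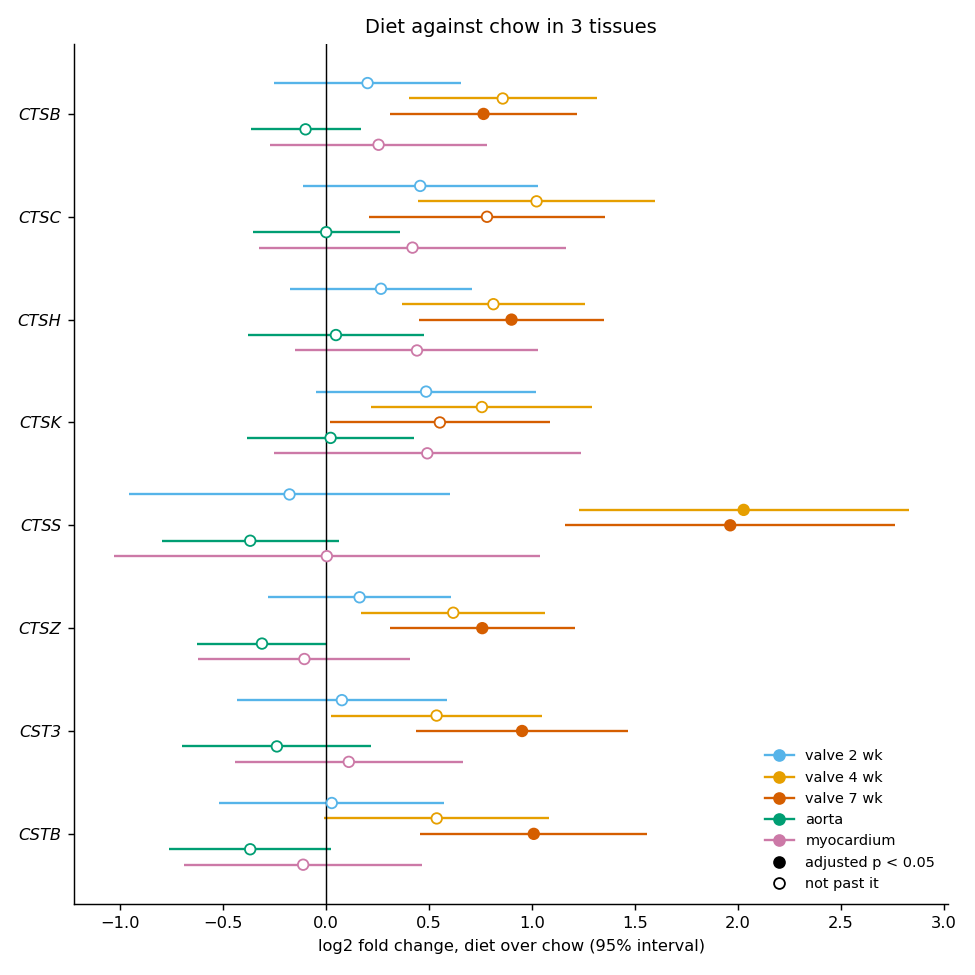
Log2 difference between diet and control for each of the 8 genes (vertical axis), with its 95% interval, in the valve at 2, 4 and 7 weeks, in the aorta and in the myocardium (colours), with filled points for adjusted p under 0.05. Filled points appear for CTSS at 4 weeks and for 6 genes at 7 weeks in the valve, and for 0 genes in aorta and myocardium.

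Comparing durations with each other sets no diet group against the control valves, although these entered the filter, scaling and spread of the same fit. Between 4 and 2 weeks 1 of 8 genes was higher, CTSS, by 2.21 ± 0.38 on the log2 scale (SE, 4.61-fold, adjusted p = 0.00886), where 3.14% of all genes tested were called higher. Between 7 and 2 weeks 5 of 8 were higher, where 14.5% of all genes were: CTSS by 2.14 ± 0.38 (adjusted p = 0.00183), CSTB by 0.98 ± 0.26 (0.0136), CST3 by 0.87 ± 0.24 (0.0172), CTSH by 0.63 ± 0.21 (0.0363) and CTSZ by 0.60 ± 0.21 (0.0473). CTSK differed by 0.07 ± 0.25 (adjusted p = 0.863, 95% interval -0.47 to 0.60). In that comparison CTSS and CSTB were called in all 15 alternatives. CTSH was lost in 6 of the 8 fits that leave out a library, with adjusted p up to 0.114, CTSZ in 6 of 8, with adjusted p up to 0.131, and CST3 without 7-week library 2 (0.0548) or 2-week library 1 (0.0503). Between 7 and 4 weeks 0 of 8 differed, and 0.1% of all genes tested were called in either direction, with 1921 at an unadjusted p under 0.05. Of the members 0 had an unadjusted p under 0.05 there, and DESeq2 called 0. There the log2 difference ran from -0.24 for CTSC to 0.47 for CSTB, with -0.07 ± 0.36 for CTSS (adjusted p = 0.951, 95% interval -0.83 to 0.70).

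The libraries that stood high or low did so for most members together. In the 4-week group, library 3 was the highest of its group for 7 of 8 genes and the highest of all 16 valves for 5, and library 4 was the lowest of its group for all 8. Control library 3 was the lowest control for 7 of 8 genes. In the 7-week group, library 2, which also had the fewest counts of the valve set (8.458 M), was the lowest for 5 genes and the highest of all 16 valves for CSTB. The summed level of the macrophage markers described below was likewise lowest of its group in control library 3, 4-week library 4 and 7-week library 2, and highest of all 16 valves in 4-week library 3.

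**Figure D3:**
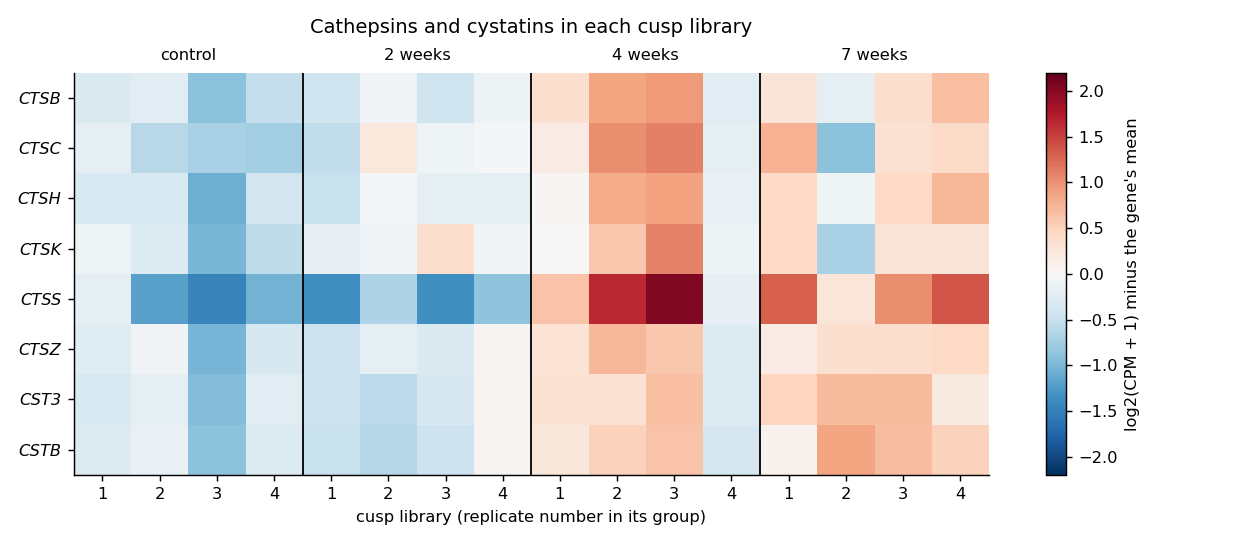
Log2 level of each of the 8 genes (rows) in each of the 16 valve libraries (columns, by group from control to 7 weeks), in colour as log2(CPM + 1) minus that gene's mean over the 16 libraries. CTSS spans the widest range, 4-week library 3 is above the mean for all 8 genes and control library 3 is below it for all 8.

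Across the 16 valves, likeness was measured as the root mean square difference between centred log2 profiles, over 10209 genes with a mean of at least 5 CPM. It describes shape and size of the variation and gives no test, since all genes share the libraries and their groups. CTSB and CTSH were each other's nearest gene (0.129), followed for both by SLC9A9, and LGMN, the asparaginyl endopeptidase of lysosomes, came next for CTSB (0.138). The inhibitors CST3 and CSTB were each other's nearest gene too (0.151). CTSZ lay nearest to GLMP, AMDHD2 and RHOG (0.112 to 0.132). CTSC lay nearest to SGPL1 (0.206), and CTSK to ATP1B3 and CD44 (0.176 each). CTSS lay nearest to 3 genes known from blood cells, BIN2 (0.186), NCKAP1L (0.213) and ARHGAP30 (0.223), and farthest among the members from CTSK, at 0.885. The SD of log2 levels across the 16 valves was 1.20 for CTSS and 0.46 to 0.63 for the other 7.

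The ratio of a protease to an inhibitor within a library needs no scaling between libraries, and only its movement between libraries can be read. The log2 ratio of CTSS to CST3 counts averaged -5.77 ± 0.51 in control valves, -5.96 ± 0.43 after 2 weeks, -4.40 ± 0.69 after 4 weeks and -4.69 ± 0.71 after 7 weeks (SD, n = 4 each), so the later means were higher while single libraries overlapped. The ratio of CTSK to CST3 was lowest at 7 weeks on average, with -1.20 ± 0.23 in controls, -0.79 ± 0.35 at 2 weeks, -1.01 ± 0.34 at 4 weeks and -1.59 ± 0.68 at 7 weeks, and its groups overlapped. The ratio of CTSS to CTSK ran from -5.00 to -4.14 in controls, from -5.81 to -4.68 after 2 weeks, from -4.13 to -2.96 after 4 weeks and from -3.29 to -2.93 after 7 weeks. The later groups did not overlap with controls, although the lowest 4-week library and the highest control library nearly met. The ratio of the inhibitors CSTB to CST3 had group means within a narrow range, at -4.71 ± 0.06 in controls, -4.77 ± 0.05 at 2 weeks, -4.72 ± 0.14 at 4 weeks and -4.69 ± 0.31 at 7 weeks. No p-value is given for these ratios.

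**Figure D4:**
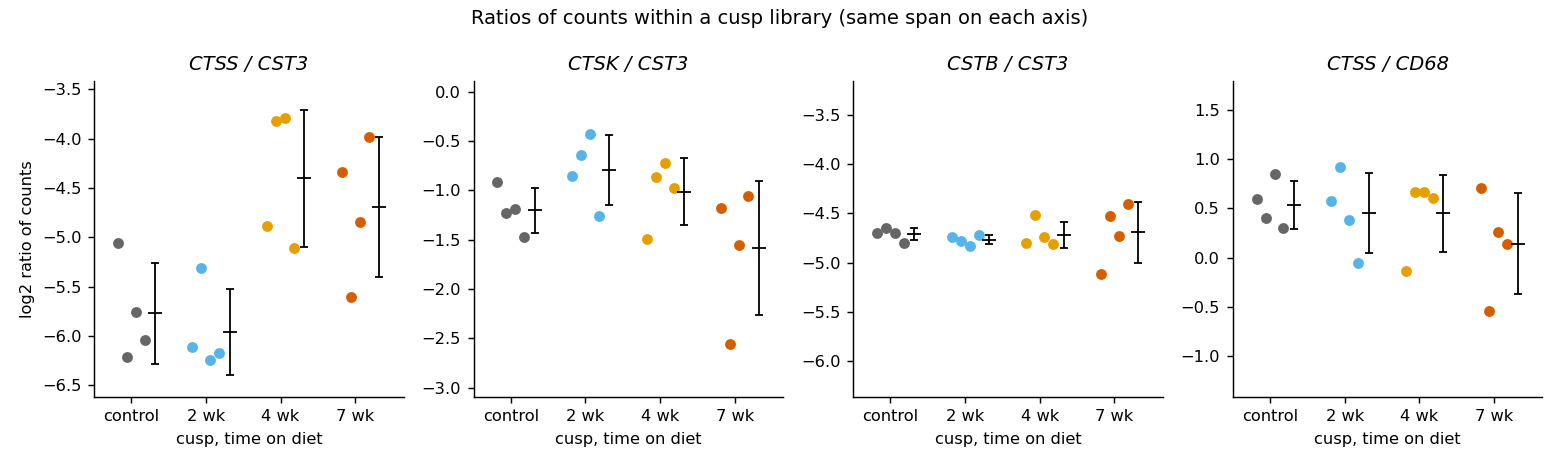
Log2 ratio of counts within each valve library (vertical axis), for pairs of proteases, inhibitors and the macrophage gene CD68, by group from control to 7 weeks, with 1 point per library and the mean with a bar of ± 1 SD beside it. The ratio of CTSS to CST3 averages -5.77 in controls and -4.40 at 4 weeks, and the ratio of CSTB to CST3 stays between -4.77 and -4.69 in the group means.

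Macrophage markers rose at 4 and 7 weeks, while of the other blood cell and endothelial markers only some were called higher, mostly at 7 weeks. All 15 markers of the macrophage list were listed and none was at 0 in any group. Their summed level was 199.6 to 370.4 CPM in control valves. It was 143 to 311 CPM after 2 weeks of diet, 438 to 2186 CPM after 4 weeks and 1039 to 1770.3 CPM after 7 weeks. Of the 15, 0 rose at 2 weeks, 12 at 4 weeks (all but CSF1R, MRC1 and PTPRC) and 13 at 7 weeks (all but CSF1R and MRC1). Over all genes tested 0.0188% were called higher at 2 weeks, 1.94% at 4 weeks and 5.2% at 7 weeks. CD68, a lysosomal membrane protein of macrophages, rose by 2.06 ± 0.39 at 4 weeks (SE, adjusted p = 0.0192) and by 2.35 ± 0.40 at 7 weeks (SE, adjusted p = 0.0063) on the log2 scale. The log2 ratio of CTSS to CD68 was 0.54 ± 0.24 in controls, 0.45 ± 0.40 at 2 weeks, 0.45 ± 0.39 at 4 weeks and 0.14 ± 0.51 at 7 weeks (SD, n = 4 each), and its groups overlapped.

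Of 6 neutrophil markers, all listed, 3 had enough counts for a test and rose at 7 weeks (S100A8, S100A9 and CXCR2), while 0 were called at 2 or 4 weeks. Their sum was 0.512 to 3.11 CPM in control valves, 0.989 to 2.81 CPM after 2 weeks of diet, 2.08 to 11.7 CPM after 4 weeks and 5.38 to 23.4 CPM after 7 weeks. Of 4 erythroid markers, 2 rose at 7 weeks (ALAS2 and SLC4A1), with sums of 37.2 to 170.3 CPM in 7-week valves and 15.2 to 51.2 CPM in control valves. The median log2 difference of the 4 erythroid markers was 0.12 at 4 weeks and 1.71 at 7 weeks. Of 3 T lymphocyte markers tested, IL7R rose at 4 weeks (adjusted p = 0.0367) and at 7 weeks (adjusted p = 0.0198). Of 8 endothelial markers only VWF was called higher at 7 weeks (adjusted p = 0.0396). The median of these 8 was -0.28 at 4 weeks, with 3 of 8 positive, and 0.40 at 7 weeks, with 6 of 8 positive. Beside the calls of these lists, 1.94% of all genes tested were called higher at 4 weeks and 5.2% at 7 weeks. The part of the macrophage, other blood cell and endothelial levels in the cathepsin and cystatin values was not tested.

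Markers of osteoclasts, the cells for which CTSK is best known, were low. Of the 7 chosen for that cell type 5 were in the tables. Their sum was 14.97 to 19.9 CPM in control valves, 12.7 to 23.2 CPM after 2 weeks, 19.97 to 74.5 CPM after 4 weeks and 14.8 to 34.6 CPM after 7 weeks. CALCR, the calcitonin receptor, was at 0 in all control, 2-week and 7-week valves, and OCSTAMP was at 0 in all control valves. Of these markers, ATP6V0D2, a subunit of the proton pump of osteoclasts and macrophages, rose by 3.69 ± 0.71 at 4 weeks (SE, adjusted p = 0.0196) and by 2.96 ± 0.70 at 7 weeks (SE, adjusted p = 0.0207). Heart muscle RNA also varied between the valve libraries. The summed level of 10 cardiomyocyte genes was 6880 to 34153 CPM in control valves, 940 to 4681 CPM after 2 weeks of diet, 1823 to 19317 CPM after 4 weeks and 7956 to 35433 CPM after 7 weeks. The 4 atrial markers summed to 4.10 to 13.7 CPM in control valves, 0.587 to 539 CPM after 2 weeks of diet, 241 to 7584 CPM after 4 weeks and 444 to 4812 CPM after 7 weeks. The 7 smooth muscle markers summed to 19687 to 36273 CPM in control valves, 29285 to 45478 CPM after 2 weeks of diet, 13307 to 28405 CPM after 4 weeks and 6657 to 14531 CPM after 7 weeks. Of these 7 markers 5 fell at 7 weeks, where 2.6% of all genes tested were called lower. The part of the osteoclast, cardiomyocyte, atrial and smooth muscle levels in the values of the members was not tested.

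Among the other cathepsins and lysosomal peptidases, CTSE rose in the valve. Of 12 on that list 9 were listed and tested, and 0 were called after 2 weeks, 1 after 4 weeks and 1 after 7 weeks, CTSE both times. Over all genes tested 1.94% were called higher at 4 weeks and 5.2% at 7 weeks. CTSE encodes cathepsin E, an aspartic protease of immune and epithelial cells. It had 2.42, 0.512, 1.11 and 1.22 CPM in control valves, 0.774, 1.73, 0.326 and 1.5001 CPM after 2 weeks, 13.3, 13.0, 44.7 and 5.20 CPM after 4 weeks, and 13.5, 11.3, 13.2 and 21.99 CPM after 7 weeks, so that the 4-week and 7-week libraries lay above all 2-week and control libraries. CTSE rose by 3.65 ± 0.62 at 4 weeks (SE, adjusted p = 0.0192) and by 3.50 ± 0.61 at 7 weeks (SE, adjusted p = 0.00652) on the log2 scale. The 4-week call was lost without 4-week library 3 (adjusted p = 0.0595) and without control library 2 (0.0818), 3 (0.0945) or 4 (0.0817), and in a fit of the 2 groups alone (0.105), and the 7-week call held in all 15 alternatives. Between 7 and 2 weeks 3 of 9 were higher, where 14.5% of all genes tested were. These were CTSE by 3.81 ± 0.62 (adjusted p = 0.00131), the serine carboxypeptidase PRCP by 0.88 ± 0.24 (0.0160) and CTSV, a close relative of CTSL in human, by 0.76 ± 0.23 (0.0249). The PRCP call was lost without 2-week library 1 (adjusted p = 0.0502), and the CTSV call without that library (0.0729) or 7-week library 4 (0.0620).

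Of 11 other cystatin family genes 9 were listed and 3 had enough counts for a test. Of these AHSG was higher at 7 weeks (adjusted p = 0.0256), a call that rests on few counts: the 7-week libraries had 1.11, 0.355, 11.7 and 0.787 CPM and the control libraries 0.0712, 0.128, 0 and 0.0812 CPM. Without 7-week library 3 it was lost (adjusted p = 0.0927), and also without control library 1 (0.0528), 2 (0.0672), 3 (0.0771) or 4 (0.0590). AHSG encodes fetuin-A, a protein made mainly in liver that binds calcium phosphate in blood. Among 17 genes that deliver or control lysosomal enzymes 0 were called at 2 weeks and 1 at 4 and at 7 weeks, CD74, the invariant chain that cathepsin S cuts. Beside both lists, 1.94% of all genes tested were called higher at 4 weeks and 5.2% at 7 weeks. Between 7 and 2 weeks 3 of the 17 were higher and 2 lower, beside 14.5% and 12.2% of all genes. The 2 lower were SORT1 and LAMP2, calls lost without the filter on low counts (adjusted p = 0.0697 and 0.0616). CD74 had 281, 70.4, 59.2 and 164 CPM in control valves, 714, 1011, 1162 and 267 CPM at 4 weeks, and 1034, 624, 789 and 1093 CPM at 7 weeks, so the 7-week libraries all lay above the controls. CD74 rose by 2.60 ± 0.55 at 7 weeks (SE, adjusted p = 0.0130), in all 15 alternatives. Its 4-week difference was 2.27 ± 0.54 (adjusted p = 0.0422), and this call was lost without any of 4-week libraries 1 to 3 or control libraries 2 to 4 (adjusted p between 0.0834 and 0.156) and in a fit of the 2 groups alone (0.138).

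Of 9 matrix proteins known as substrates of cathepsins, 2 were higher and 1 lower than in control valves at 7 weeks, and 0 were called at 2 or 4 weeks. Over all genes tested 5.2% were called higher and 2.6% lower at 7 weeks. The genes named here were picked after their values were seen. After 2 weeks all 9 log2 differences were positive, with a median of 0.98 beside 0.02 over all genes tested, and the summed level of the 9 was 19516 to 29299.7 CPM in 2-week valves, against 7874 to 14881 CPM in control valves. ELN, the elastin gene, differed by 1.88 ± 0.39 at 2 weeks (SE, adjusted p = 0.0662), and HSPG2, the basement membrane proteoglycan perlecan, by 0.98 ± 0.19 (SE, adjusted p = 0.0653).

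At 7 weeks ACAN, the proteoglycan aggrecan, rose by 1.69 ± 0.37 (SE, adjusted p = 0.0141), a call lost without control library 2 (0.0508) or 3 (0.0534). FN1, fibronectin, rose by 1.595 ± 0.374 (SE, adjusted p = 0.0198), a call lost without 7-week library 4 (0.0554) or control library 2 (0.0649), 3 (0.0618) or 4 (0.0587). HSPG2 fell by 0.77 ± 0.19 (SE, adjusted p = 0.0257), a call lost without 7-week library 2 (0.0694), 3 (0.0546) or 4 (0.0589) or control library 2 (0.0765) or 3 (0.0655), and in a fit of the 2 groups alone (0.0621). ELN differed from control by -0.20 ± 0.38 at 7 weeks (SE, adjusted p = 0.769).

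Relative to the 2-week valves, HSPG2 was lower at 4 weeks, with a log2 difference of -1.17 ± 0.19 (SE, adjusted p = 0.00809), and HSPG2, ELN and LAMA4, a laminin chain, were lower at 7 weeks, with log2 differences of -1.75 ± 0.19, -2.08 ± 0.39 and -1.15 ± 0.27 (SE, adjusted p = 0.000444, 0.00270 and 0.00831). ELN was also called lower at 4 than at 2 weeks (-1.53 ± 0.39, SE, adjusted p = 0.0367), but this call was lost in a fit of the 2 groups alone (0.0578). It was also lost without any single 4-week library and without 2-week library 1 or 3 (adjusted p between 0.0547 and 0.135). Over all genes tested 1.23% were called lower at 4 than at 2 weeks, and 12.2% at 7 than at 2 weeks. Of the 7 smooth muscle markers, 7 were positive at 2 weeks against control. All 7 were called lower at 7 than at 2 weeks, with a median log2 difference of -1.98. The part of smooth muscle levels or of the proteases in the matrix gene values was not tested.

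In the ascending aorta 0 of 8 genes differed between diet (n = 2) and control (n = 3), where 0.159% of 14435 genes tested were called in either direction and 1768 had an unadjusted p under 0.05. None of the 8 was among these, and DESeq2 called 0 of 8. CTSS was at 8.12 and 8.09 CPM in diet aortas, against 9.38, 11.9 and 11.1 CPM in control aortas, a log2 difference of -0.37 ± 0.18 (SE, adjusted p = 0.466, 95% interval -0.80 to 0.06). CTSB was at 356 and 337 CPM in diet aortas, against 395, 387 and 369.5 CPM in control aortas, a difference of -0.10 ± 0.11 (adjusted p = 0.729). CSTB was at 28.1 and 26.6 CPM in diet aortas, against 40.2, 30.4 and 38.7 CPM in control aortas, a difference of -0.37 ± 0.16 (adjusted p = 0.434). For 4 of 8 genes, CTSB, CTSS, CTSZ and CSTB, both diet libraries lay below all control libraries, where 20.5% of all genes tested did, and for the same 4 under TMM scaling, where 13.9% did. The macrophage marker sum was 84.7 to 85.8 CPM in diet aortas and 89.0 to 123 CPM in control aortas. The atrial marker sum was 103 to 112 CPM in diet aortas and 0.782 to 1.99 CPM in control aortas, and the part of either sum was not tested.

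In the myocardium 0 of 8 genes differed between diet and control (n = 3 each), where 0.0848% of 14151 genes tested were called in either direction and 1252 had an unadjusted p under 0.05. Here too 0 of 8 had an unadjusted p under 0.05, and DESeq2 called 0. CTSS was at 8.43, 10.2 and 12.5 CPM in diet hearts, against 4.66, 8.59 and 21.9 CPM in control hearts, a log2 difference of 0.00 ± 0.45 (SE, adjusted p = 0.998, 95% interval -1.03 to 1.04). The widest spread lay among the control hearts, whose libraries surrounded the diet libraries. CTSH was at 25.2, 18.9 and 27.3 CPM in diet hearts, against 20.8, 20.1 and 16.6 CPM in control hearts, a difference of 0.44 ± 0.26 (adjusted p = 0.734), and CTSK had the largest difference of the 8, 0.49 ± 0.32 (adjusted p = 0.790). The macrophage marker sum was 171 to 219 CPM in diet hearts and 115 to 178 CPM in control hearts, and its part was not tested.

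Whether the diet difference itself differed between tissues was tested in a joint fit of all 27 libraries. That fit, also used for the normal tissues below, had no term for the animal. The 3 diet myocardium libraries came from animals of the 7-week valves, and some control animals gave both valve and myocardium. With the animal as a block in limma voom, the consensus correlation between libraries of 1 animal was 0.218. For the 7-week valve minus the myocardium 0 of 8 genes passed, where 0.95% of 17161 genes tested did and 2797 had an unadjusted p under 0.05. An unadjusted p under 0.05 was found for 4 members, CTSS, CTSZ, CST3 and CSTB, and DESeq2 called 1, CTSS. The largest value was that of CTSS, 1.93 ± 0.58 on the log2 scale (SE, adjusted p = 0.103, 95% interval 0.74 to 3.13), and without myocardium control library 1 it passed the threshold at 2.29 (adjusted p = 0.0375). CSTB followed with 1.09 ± 0.36 (adjusted p = 0.140), and CTSK stood at 0.03 ± 0.41 (adjusted p = 0.983). For the mean of the 3 valve durations minus the aorta 0 of 8 passed, where 0.0175% of all genes did, which was 3 genes, with 1416 at an unadjusted p under 0.05. Of the members 5 had an unadjusted p under 0.05 and DESeq2 called 0. CTSS was again the largest, at 1.602 ± 0.599 (SE, adjusted p = 0.528). At least 1 of the 2 diet aortas was from an animal taken at 2 weeks, so that duration and tissue cannot be told apart in that contrast.

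On normal chow, all members except CTSS were higher in valve and in aorta than in heart muscle. CTSK stood apart most: it had 634, 555, 339.9 and 462 CPM in control valves and 464, 527 and 366 CPM in control aortas, against 16.8, 27.3 and 41.3 CPM in control myocardium. Every valve and aorta library lay far above every myocardium library. CTSK was higher in valve than in myocardium by 3.78 ± 0.33 on the log2 scale (SE, 13.7-fold, adjusted p = 1.07e-08) and in aorta than in myocardium by 3.79 ± 0.34 (SE, adjusted p = 7.5e-09). CST3 came next, with 1138 ± 245 CPM in valve (SD, n = 4) and 1147 ± 190.3 CPM in aorta (SD, n = 3), against 201 ± 58.0 CPM in myocardium (SD, n = 3). It was higher in valve than in myocardium by 2.15 ± 0.26 (SE, 4.42-fold, adjusted p = 9.06e-07).

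In all, 7 of 8 genes were higher in normal valve than in normal myocardium, where 23.3% of 17161 genes were, and 7 of 8 were higher in normal aorta than in normal myocardium, where 26.4% were. The remaining 5 of these 7 differed between valve and myocardium by 0.96 (CSTB) to 1.64 (CTSC) on the log2 scale. CTSS was the exception in both, with 0.57 ± 0.41 for valve over myocardium (adjusted p = 0.266) and -0.29 ± 0.44 for aorta over myocardium (adjusted p = 0.609). Without myocardium control library 3 the value for valve over myocardium was 1.19 (adjusted p = 0.0325). Between normal valve and normal aorta 0 of 8 differed, where 23.8% of genes were called in either direction and 6308 had an unadjusted p under 0.05, CTSS among them, and DESeq2 called 0 of 8. The differences ran from -0.16 for CST3 to 0.11 for CSTB, apart from CTSS at 0.86 ± 0.42 (adjusted p = 0.136, 95% interval 0.00 to 1.72). The tables of the 3 tissues were deposited separately, and whether the tissues were prepared or sequenced together is not given, so that tissue and library preparation cannot be told apart.

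Ordered by group mean CPM over all 8 groups, the 4-week valve was highest for the 6 proteases and the 7-week valve for the 2 inhibitors, and neighbouring valve groups mostly overlapped. Under TMM scaling the 7-week valve was highest for CTSH and CTSZ as well. The 7-week valve did not overlap with the control valve, its neighbour in that order, for CTSS. For CTSZ the 7-week valve lay above the 2-week valve in CPM, but under TMM scaling its lowest library (126) fell below the highest 2-week library (129). The 2 myocardium groups were lowest for every member except CTSS, for which the diet aorta was lowest at 8.10 CPM on average.

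**Figure D5:**
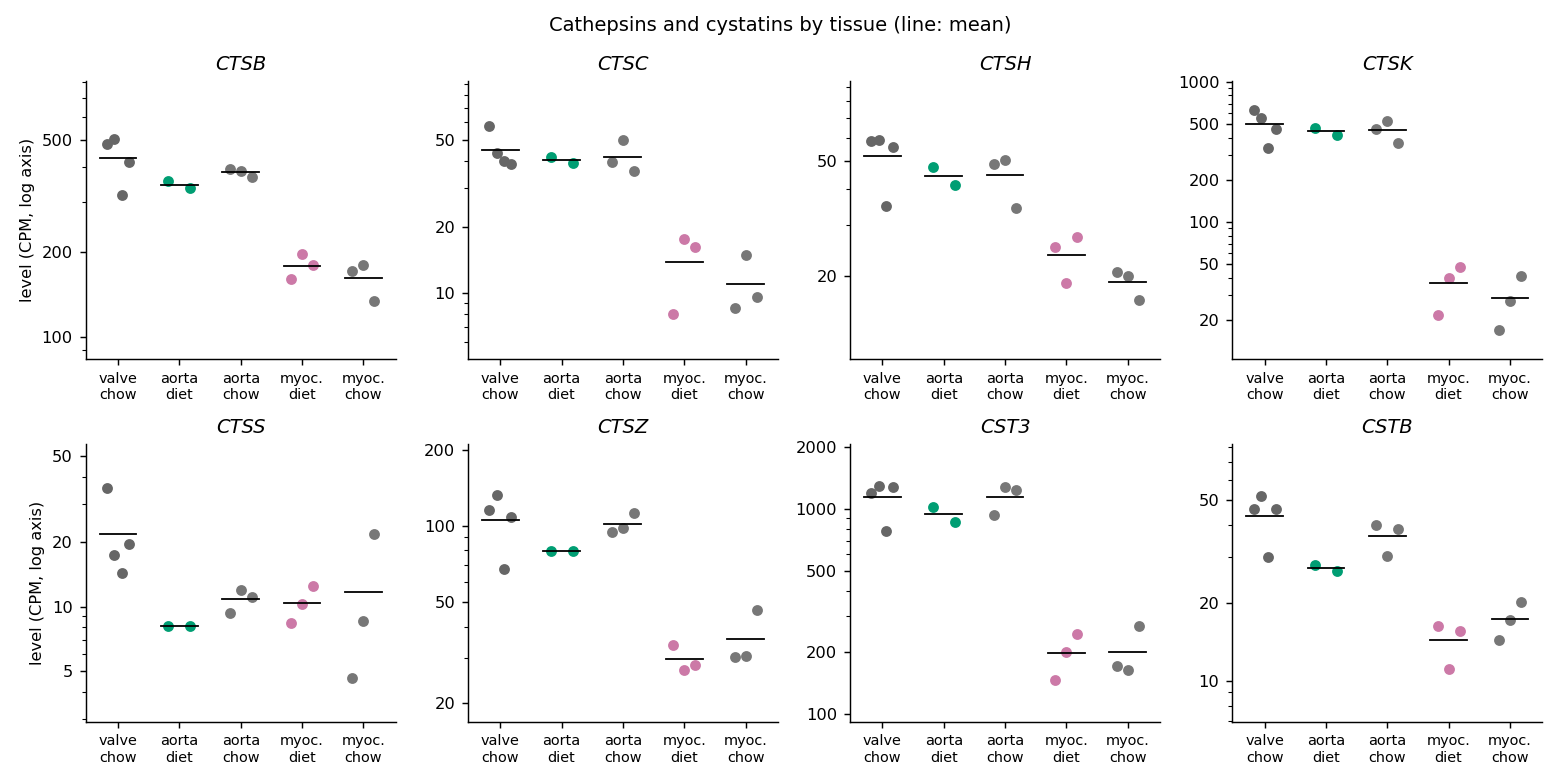
Level of each of the 8 genes in CPM (vertical axis, log scale, 1 panel per gene) in control (chow) valves and in diet and control aorta and myocardium, with 1 point per library and a line at the group mean. Myocardium is lowest for 7 genes, by most for CTSK at 16.8 to 47.9 CPM, and CTSS overlaps between aorta and myocardium.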

How the data were processed

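The authors deposited expected counts per gene, estimated by RSEM, in 1 table per tissue and in a second valve table from which myocardial genes had been removed. The submitters' processing notes name, in no stated order, RSEM 1.3.3, STAR 2.7.8a, edgeR 3.42.4, FastQC 0.11.9 and Trim Galore 0.6.6. The kit was directional, per the labels' protocols. Not given in the sources used here were the strand setting, the genome build and the annotation. Of the valve values, 10.1% were not whole, and all were rounded.

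Genes with enough counts (filterByExpr, minimum count 10, minimum total 15) were scaled by TMM and tested with the edgeR 4.0.16 quasi-likelihood test in R 4.3.3, in 1 fit of the 16 valves, 1 per other tissue, and 1 joint fit across tissues. Procedures were tested on simulated data. Members and lists were chosen with earlier results of these data known. All members were named, with, from the lists of peptidases, cystatins and lysosomal delivery, up to 4 genes that passed, and for each member the 3 nearest genes. Macrophage, osteoclast, neutrophil, erythroid, T lymphocyte, endothelial, cardiomyocyte, atrial and smooth muscle markers came from fixed lists. Alternatives were DESeq2 1.42.0, its size factors, no filter, a replicate or animal block (limma 3.58.1), the filtered valve table, 2-group fits and leaving out each library. Removing the gene RN18S and counting overlap under TMM scaling were added after seeing the data.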

Additional observations from a re-analysis of the deposited data

Results flagged for a closer look

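In 64 sets, each of 1 gene in 1 valve group of 4 libraries, 3 held a library separated from the others by more than Dixon's 95% critical value, and chance alone gives about 1 in 20. CTSH in control valve library 3 was the lowest of its group at 34.8 CPM, with the next at 55.6 CPM. AHSG in 7-week valve library 3 was the highest at 11.7 CPM, with the next at 1.11 CPM. ACAN in control valve library 1 was the highest at 84.4 CPM, with the next at 35.5 CPM.

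For 2 genes outside the members the diet difference at 7 weeks in the valve differed from that in the myocardium by the test of the difference itself. For PRCP, a serine carboxypeptidase, the difference of differences was 2.15 ± 0.40 on the log2 scale (SE, adjusted p = 0.0103, edgeR). PRCP had 51.5, 14.2, 28.3 and 28.96 CPM in 7-week valves, against 18.2, 19.1, 15.8 and 18.7 CPM in control valves, and 5.83, 10.3 and 4.98 CPM in diet myocardium, against 24.2, 12.3 and 26.97 CPM in control myocardium. Without myocardium diet library 3 it was 1.96 (adjusted p = 0.0526). For COL3A1, a fibrillar collagen chain, it was 2.30 ± 0.48 (SE, adjusted p = 0.0219), and without myocardium diet library 3 it was 2.22 (adjusted p = 0.0862). In the edgeR fit of each tissue, COL3A1 differed from control by 0.39 ± 0.34 in 7-week valves (SE, adjusted p = 0.497). In diet myocardium it differed by -1.93 ± 0.28 (SE, adjusted p = 0.0798), so most of the value came from the myocardium.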

How the results depend on the processing

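Counts of called members moved as follows. At 4 weeks against control, where the main count was 1, DESeq2 gave 4, the replicate block 0, a fit of only the 2 groups 0, removal of RN18S 2, and leaving out a library 0 to 5. At 7 weeks against control (6) DESeq2 gave 7, no filter 4 (without CTSB and CTSZ), the replicate block 1, the 2-group fit 2, and leaving out a library 1 to 6. For 4 against 2 weeks (1) DESeq2 gave 2 and leaving out a library 1 to 3. For 7 against 2 weeks (5) no filter gave 3, the replicate block 3 and leaving out a library 2 to 6. For the 7-week valve minus myocardium (0) DESeq2 gave 1 and leaving out a library 0 to 1. Replicate numbers did not pair the valves: deviations of same-numbered libraries correlated at -0.34 to 0.126 over 24 pairs. With the replicate block the 4-week calls of CTSE (adjusted p = 0.0633) and CD74 (0.0831), the 7-week call of HSPG2 (0.0558) and the call of ELN at 4 against 2 weeks (0.0710) were also lost. Of 64 mean levels of members, 16 moved by more than 1 SD under TMM scaling.

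CTSS was called at 7 weeks, and at 4 and 7 against 2 weeks, in all 15 alternatives each. Of the member differences 24 changed sign in some alternative. In the main fit none of these 24 was past the threshold and none was above 0.29 in size, while alternatives gave larger values for some. With libraries left out the ranges were, at 2 weeks, CTSS -0.31 to 0.11, CST3 -0.048 to 0.19 and CSTB -0.12 to 0.15; for 7 against 2 weeks CTSK -0.0094 to 0.26; and for 7 against 4 weeks CTSB -0.27 to 0.033, CTSH -0.058 to 0.23, CTSK -0.34 to 0.036, CTSS -0.34 to 0.28 and CTSZ -0.016 to 0.26. In aorta they were CTSC -0.085 to 0.13, CTSH -0.10 to 0.15 and CTSK -0.10 to 0.13, and the replicate block gave -0.071, -0.095 and -0.092 for these 3, with DESeq2 at -0.0010 and its size factors at -0.00033 for CTSC. In myocardium they were CTSS -0.34 to 0.69, CTSZ -0.31 to 0.035, CST3 -0.050 to 0.28 and CSTB -0.31 to 0.095. For normal valve over aorta they were CTSB -0.025 to 0.11, CTSC -0.15 to 0.12, CTSH -0.063 to 0.21, CTSK -0.13 to 0.12, CTSZ -0.16 to 0.047 and CSTB -0.0027 to 0.23, with the animal block at -0.021 for CTSB and 0.0092 for CTSK. CTSS for aorta over myocardium ranged from -0.67 to 0.35. CTSK for the 7-week valve minus myocardium ranged from -0.20 to 0.28, with the animal block at -0.0016. Apart from the smaller sample sets of single-library and 2-group fits, the cause was not tested. Depth limits AHSG, which rests on few counts, and CTSE in the control and 2-week valves, where its level was low.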
